A study of Homo sapiens with 8 samples.

Results

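Nucleotide excision repair and translesion synthesis are the routes by which cells remove or copy past cisplatin adducts, and 32 genes of these routes were described in a pair of head and neck squamous carcinoma lines and their cisplatin resistant clones. The genes were listed by symbol. Transcripts of 31 of the 32 were among the 35113 genes of the table, and all 31 had enough counts to be tested beside 15190 other genes. GTF2H1, which encodes the p62 subunit of TFIIH, had 0 of its 16 annotated transcripts matched and was not analysed here.

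Cisplatin forms bulky adducts that join neighboring bases of a strand. In nucleotide excision repair such damage is found either by the XPC and DDB proteins anywhere in the genome or by a stalled RNA polymerase in a transcribed gene, after which TFIIH opens the helix, XPA checks the lesion and a pair of nucleases cut out the damaged strand. A lesion that remains when the replication fork arrives can be copied past by translesion polymerases, which are recruited when RAD18 adds a single ubiquitin to the sliding clamp PCNA. HLTF and SHPRH can extend that ubiquitin into chains that serve template switching, and a lesion can also be skipped by repriming.

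The 4 groups of polyA RNA libraries were HPV- parental cells (UPCISCC89), the HPV- resistant clone derived from them, HPV+ parental cells (UDSCC2) and the HPV+ resistant clone derived from those, with 2 libraries per group and 8 in all. Each resistant group is 1 clone grown from a single cell after long-term cisplatin, so a property of that clone and a property of resistance cannot be told apart. The HPV+ line was selected in higher cisplatin concentrations than the HPV- line, so HPV status, line and dose cannot be told apart either. It is not stated whether both libraries of a group are from different cultures. The p-values therefore reflect library-to-library spread alone, and that spread may be technical.

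Estimated counts totaled 20250246 to 27341284 read pairs per library, and replicate libraries differed by more than sampling noise in all 4 groups. Mitochondrial genes held 5.0 and 3.24% of counts in the HPV- resistant libraries and 1.71 to 3.23% in the other 6 libraries. Of the 6 squamous epithelium markers checked, all 6 were expressed in both lines, and all 6 fell in the HPV- clone relative to its parent (adjusted p at most 0.0158, edgeR). In the HPV+ clone 2 of the 6 fell, KRT14 by 1.25 (adjusted p = 0.00311, edgeR) and PKP1 by 0.62 on the log2 scale (adjusted p = 0.0204, edgeR). Of 8 markers of other cell types, COL3A1 stood at 1358 to 3079 CPM (counts scaled to a library of 1000000 counts) in the HPV+ libraries and at 0 in the HPV- libraries, and CHGA was at 0 in all 8 libraries. COL1A2 stood at 0 to 1.27 CPM in the HPV+ libraries and at 0.427 to 4.44 CPM in the HPV- libraries. PTPRC, CD3E, CD79A, PECAM1 and MLANA were at most 0.581 CPM in any library. CDKN2A, which encodes p16 and is commonly high in HPV+ tumors, was at 56.5 to 123 CPM in HPV- and 316 to 419 CPM in HPV+ parental cells. It fell in the HPV- clone, to 35.7 and 36.8 CPM (log2 fold change -1.31, adjusted p = 0.0206, edgeR), and was at 175 and 203 CPM in the HPV+ clone, where it did not pass (-0.96, adjusted p = 0.0725, edgeR). Of 16 proliferation markers, 11 passed as lower in the HPV- clone (68.8%), 5 in the HPV+ clone (31.2%) and 0 as higher in either, beside backgrounds for lower calls of 14.1% and 10.5%. What part these shifts had in the results below was not tested.

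Promoters are shown for 3 genes that passed a test of the change with resistance on counts. POLI passed as higher in both clones, although its HPV+ call was lost without any 1 of the 4 HPV+ libraries. GTF2H3 passed as lower in the HPV- clone in every refit tried, though its log2 fold change of -0.82 was not beyond 1. POLH passed for the difference between the lines on counts and not with an offset for transcript length (-0.11, adjusted p = 0.86, edgeR). The sequences are from RefSeq on GRCh38.p14 and run 250 bases before to 50 bases after the gene start, on the plus strand, at chr18:54269324-54269623 for POLI, chr12:123633579-123633878 for GTF2H3 and chr6:43575935-43576234 for POLH. Capitals mark GGGCGG, the GC box bound by SP1, and CCGGAAG, an ETS family motif, on either strand.
POLI: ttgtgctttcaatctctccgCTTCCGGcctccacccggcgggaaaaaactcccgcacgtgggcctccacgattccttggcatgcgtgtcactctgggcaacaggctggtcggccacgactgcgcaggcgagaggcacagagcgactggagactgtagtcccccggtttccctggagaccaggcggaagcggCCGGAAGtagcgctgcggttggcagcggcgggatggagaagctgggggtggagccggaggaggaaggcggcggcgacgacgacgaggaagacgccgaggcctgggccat
GTF2H3: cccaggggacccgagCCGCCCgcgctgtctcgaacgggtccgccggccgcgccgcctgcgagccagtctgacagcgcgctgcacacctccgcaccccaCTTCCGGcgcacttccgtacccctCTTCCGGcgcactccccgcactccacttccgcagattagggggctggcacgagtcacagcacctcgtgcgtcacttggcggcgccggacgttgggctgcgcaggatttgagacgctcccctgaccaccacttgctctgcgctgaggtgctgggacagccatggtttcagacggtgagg
POLH: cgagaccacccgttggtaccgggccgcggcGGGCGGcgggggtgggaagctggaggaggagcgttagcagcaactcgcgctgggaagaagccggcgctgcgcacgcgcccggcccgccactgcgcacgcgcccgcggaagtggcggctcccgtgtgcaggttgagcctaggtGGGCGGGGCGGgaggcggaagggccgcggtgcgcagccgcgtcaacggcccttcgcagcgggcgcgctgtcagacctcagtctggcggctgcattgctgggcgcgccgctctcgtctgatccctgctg
GGGCGG was found 3 times in the POLH window, where a pair of the matches overlap by 1 base, and 1 time in the GTF2H3 window. CCGGAAG was found 2 times in each of the POLI and GTF2H3 windows. The table held 41 promoters for the 32 genes. Of these 41, 31 held GGGCGG (75.6%, against 45% of all 35116 promoters), 10 held CCGGAAG (24.4% against 10.3%) and 11 held CCAAT, the NF-Y box (26.8% against 34.6%). A paired p53 half-site was found in 0.0285% of all promoters and in 1 of the 41, a promoter of DDB2, a known p53 target. The background holds every promoter listed, whether or not its gene was expressed or tested here, and some of the 32 genes count with more than 1 promoter. These matches describe letters in a window and were not tested.

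In the HPV- line, 10 of 31 genes passed the test in the resistant clone (adjusted p under 0.05, edgeR), which is 32.3% against 26.8% of all genes tested. Of these, 8 were higher (25.8%, background 12.8%) and 2 were lower (6.45%, background 14.1%). The 8 were XPC, UVSSA, CDK7, POLH, POLK, POLI, HLTF and SHPRH, and the 2 were GTF2H3 and MAD2L2. The count for CDK7 cannot be read as the level of the gene, as set out below, and without it 9 of 30 genes passed (30%), 7 of them higher. Genes with a log2 fold change beyond 1 as well, the study's criterion for differential expression, were POLI and CDK7, or 6.45% against a background of 11.3%. The median log2 fold change of the 31 genes was -0.03, beside 0.04 for all genes. The 10 calls became 3 with an offset for transcript length (UVSSA, GTF2H3 and CDK7), 4 in a fit of only the 4 HPV- libraries (the same 3 and POLI) and 3 to 11 with 1 library left out, the fewest without HPV- resistant replicate 1. In the HPV+ line 1 of 31 genes passed, POLI, which is 3.23% against a background of 18.1% (7.65% for higher and 10.5% for lower calls), and 0 passed with a log2 fold change beyond 1 (background 8%). The median there was 0.07, beside 0.00 for all genes. Before adjustment, 10 of the 31 had a p under 0.05 there (32.3%, background 33%), and DESeq2 called 2. A fit of only the 4 HPV+ libraries called 13 of the 31 (9 higher, 4 lower), and the number also moved when 1 library was left out. For the alternative fits of either line the share of all genes called is not given. Their counts therefore have no background beside them. Resistant libraries both lay above both parental ones for 10 genes and below them for 11 in the HPV- line (32.3% and 35.5%, against 32.7% and 28.5% of all genes), and for 14 and 9 genes in the HPV+ line (45.2% and 29%, against 33.5% and 34.3%).

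**Figure D1:**
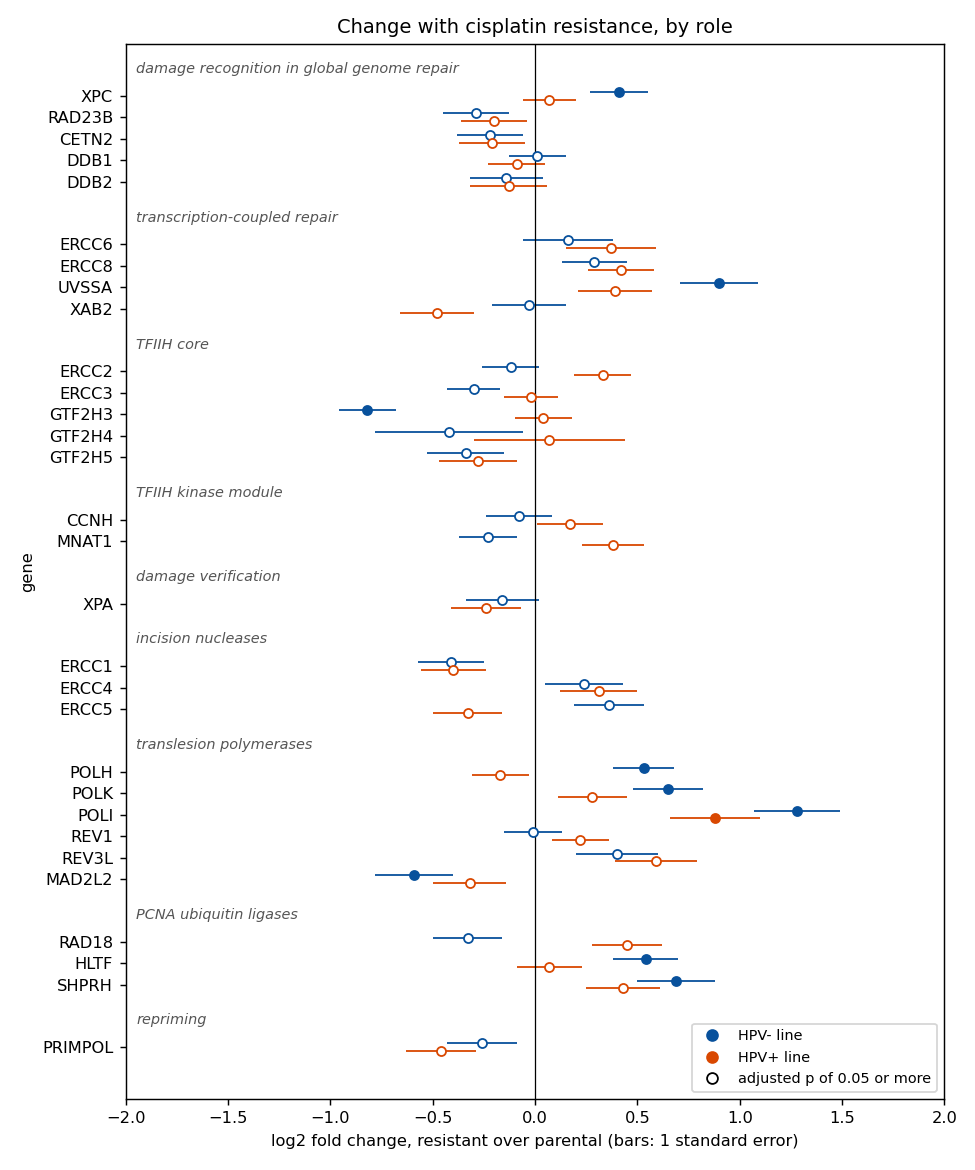
The horizontal axis is the log2 fold change of resistant over parental cells with 1 standard error for 30 genes grouped by role (vertical axis), in the HPV- line (blue) and the HPV+ line (orange); filled points have an adjusted p under 0.05 in edgeR. POLI is the only gene of the 30 filled in both colors, at 1.28 and 0.88, and GTF2H3 is the leftmost point, at -0.82 in the HPV- line. CDK7 is left out.

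Among the genes that recognize damage across the genome, XPC was the only one of 5 to pass in either clone. XPC encodes the sensor that binds the distorted helix. It was at 25.2 and 24.8 CPM in HPV- parental and 31.0 and 35.3 CPM in HPV- resistant libraries, so both resistant libraries lay above both parental ones, a 1.33-fold difference (log2 fold change 0.41, SE 0.14, adjusted p = 0.0472, edgeR). This call was lost when any of the 8 libraries was left out (adjusted p from 0.0652 to 0.2, edgeR) and with DESeq2 (0.0699), the length offset (0.317), only the 4 HPV- libraries (0.199), the replicate block (0.0692) or no filter (0.0939). XPC in HPV+ cells was at 61.2 and 61.9 CPM in parental and 63.0 and 66.1 CPM in resistant libraries, and did not pass (log2 fold change 0.07, SE 0.13). The partners of XPC, RAD23B and CETN2, and the subunits DDB1 and DDB2 of the ubiquitin ligase that flags ultraviolet damage, had log2 fold changes from -0.29 to 0.01 in the HPV- line and from -0.21 to -0.09 in the HPV+ line, and none passed.

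UVSSA was the only one of 4 transcription-coupled repair genes to pass. UVSSA brings TFIIH to the stalled polymerase, and it was at 9.61 and 11.3 CPM in HPV- parental and 22.6 and 16.5 CPM in HPV- resistant libraries. The groups did not overlap, and the difference was 1.87-fold (log2 fold change 0.90, SE 0.19, adjusted p = 0.00757, edgeR). Without HPV- resistant replicate 1 the adjusted p was 0.0663 (edgeR, log2 fold change 0.65). In the HPV+ line UVSSA was at 48.0 and 39.9 CPM in parental and 55.4 and 59.6 CPM in resistant libraries, again without overlap, and did not pass (log2 fold change 0.39, SE 0.18, adjusted p = 0.166, edgeR). ERCC6 and ERCC8, the CSB and CSA factors of the stalled polymerase, had log2 fold changes of 0.16 and 0.29 in the HPV- line and of 0.37 and 0.42 in the HPV+ line, and XAB2, which binds XPA, had -0.03 and -0.48. None of these 3 genes passed in either line.

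**Figure D2:**
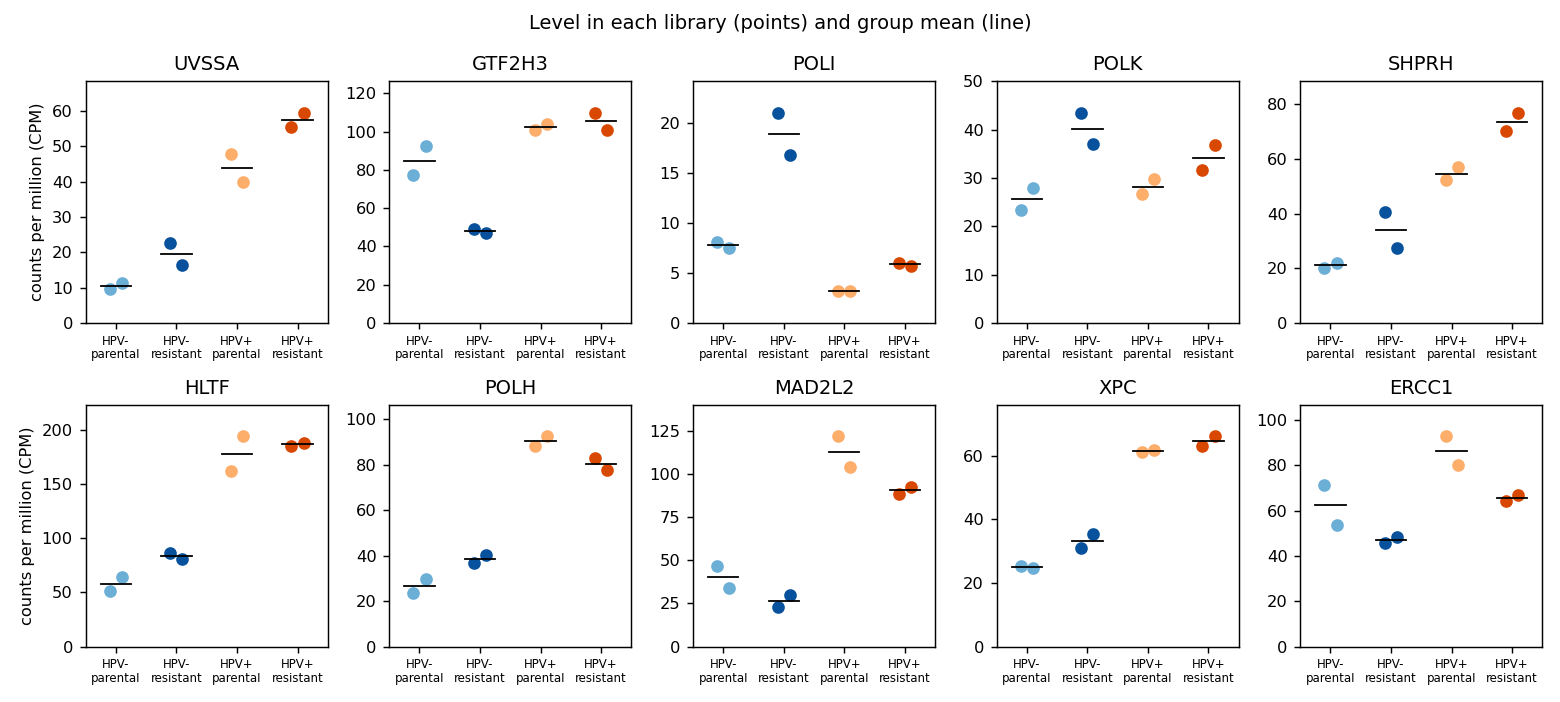
Each panel gives the level of 1 gene in CPM (vertical axis, from 0) in the 2 libraries of each group (points; horizontal axis) with the group mean (line). GTF2H3 lies at 49.3 and 47.0 CPM in HPV- resistant libraries and at 77.3 CPM or more in the other 6, and the resistant libraries of POLI lie above the parental ones of the same line.

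GTF2H3, which encodes the p34 subunit of the TFIIH core, was lower in the HPV- resistant clone. It was at 77.3 and 92.4 CPM in parental and 49.3 and 47.0 CPM in resistant libraries, and the groups did not overlap. The mean fell 1.76-fold (log2 fold change -0.82, SE 0.14, adjusted p = 0.00274, edgeR), and the call held with each library left out (log2 fold change from -0.95 to -0.76). HPV+ cells had 101 and 104 CPM in parental and 110 and 101 CPM in resistant libraries, which overlapped (log2 fold change 0.04, SE 0.14, adjusted p = 0.886, edgeR). The change in the HPV+ line exceeded that in the HPV- line by 0.86 (SE 0.20, adjusted p = 0.0155, edgeR). This call was lost with the length offset and without either HPV+ parental library or HPV+ resistant replicate 1. With 1 library left out the difference ran from 0.78 to 0.99. The 20 tested genes nearest to GTF2H3 on chromosome 12 had a median log2 fold change of -0.43 in the HPV- line, and what part the region had in the result was not tested.

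By TPM, Salmon's scale that also divides by transcript length, the canonical GTF2H3 transcript, GTF2H3-212, was at 20.1 and 27.2 TPM in HPV- parental and 15.3 and 16.1 TPM in HPV- resistant libraries, and it did not pass on its own (log2 fold change -0.69, SE 0.14, adjusted p = 0.105, edgeR). The retained-intron transcript GTF2H3-203 had 34.5 and 86.5 estimated counts in the HPV- parental libraries and 0 in both libraries of the HPV- clone. The HPV+ parental libraries held 204 and 205 of its counts and those of the HPV+ clone 95.5 and 120. It passed as lower in the HPV- line (adjusted p = 0.0447, edgeR), in the fit with all 8 libraries. Another retained-intron transcript of similar length, GTF2H3-204, was at 4.85 and 0 TPM in HPV- parental and 9.43 and 1.01 TPM in HPV- resistant libraries, and Salmon can share reads between such transcripts.

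The other TFIIH core genes did not pass in either clone. ERCC2 and ERCC3, the XPD and XPB helicases that open the helix, had log2 fold changes of -0.12 and -0.30 in the HPV- line and of 0.33 and -0.02 in the HPV+ line. GTF2H4 and GTF2H5, the p52 and p8 subunits that regulate XPB, had -0.42 and -0.34 in the HPV- line and 0.07 and -0.28 in the HPV+ line. Only 1 of 6 annotated GTF2H4 transcripts and 2 of 7 of GTF2H5 were matched, so their levels are partial. Of the TFIIH kinase module, which phosphorylates RNA polymerase II, CCNH (cyclin H) and MNAT1 (the assembly factor MAT1) had -0.08 and -0.23 in the HPV- line and 0.17 and 0.38 in the HPV+ line.

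CDK7, the kinase of that module, was at 2.67 and 0.676 CPM in HPV- parental and 58.2 and 55.4 CPM in HPV- resistant libraries, and passed as higher (log2 fold change 5.12, SE 0.84, adjusted p = 0.00875, edgeR). HPV+ cells had 1.53 and 2.91 CPM in parental and 1.43 and 0.194 CPM in resistant libraries. Only 7 of its 15 annotated transcripts were matched. Nearly all the counts of the HPV- clone were on CDK7-201, of 1426 bases, which had 1123 and 1070 estimated counts there and 0 in the other 6 libraries. A transcript of 1432 bases that was not matched to any gene had the reverse pattern, with 1482 and 1675 estimated counts in the HPV- parental libraries and 0 in both of the HPV- clone. Its counts were 734 and 938 in the HPV+ parental libraries and 741 and 761 in those of the HPV+ clone. Summed with the CDK7 counts and scaled to the library total, it gave 71.8 and 66.8 CPM for HPV- parental cells against 57.1 and 52.2 CPM for the HPV- clone. The same sum was 29.1 and 37.2 CPM for HPV+ parental cells against 31.1 and 30.2 CPM for the HPV+ clone. In this sum the HPV- resistant libraries lie below the parental ones, the opposite of the test on the matched counts alone. It was 1 of 2 unmatched transcripts with at least 300 counts in the other 6 libraries and at most 30 in the HPV- clone, and the one of these within 10 bases of the length of CDK7-201. It was looked for after the CDK7 values were seen, and the gene it belongs to was not established, so no direction is given for CDK7.

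**Figure D3:**
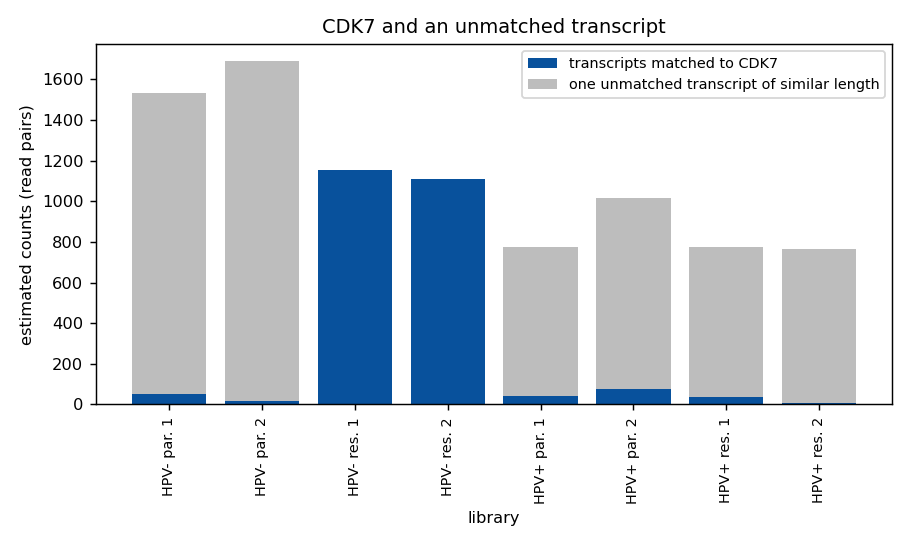
Bars give estimated counts in each of the 8 libraries (par., parental; res., resistant) for transcripts matched to CDK7 (blue) and for 1 unmatched transcript of 1432 bases (gray) stacked on them. Counts sit almost wholly in blue in the HPV- resistant libraries, 1156 and 1112, and almost wholly in gray in the other 6.

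XPA and the incision nucleases did not pass in either clone. XPA, which verifies the lesion, was at 14.2 and 15.7 CPM in HPV- parental, 13.4 and 13.3 CPM in HPV- resistant, 22.4 and 24.5 CPM in HPV+ parental and 22.0 and 17.8 CPM in HPV+ resistant libraries. Both resistant libraries were below both parental ones in each line, with log2 fold changes of -0.16 (SE 0.18) and -0.24 (SE 0.17). ERCC1, which with XPF cuts 5′ of the lesion and is widely studied in platinum response, was at 71.5 and 53.7 CPM in HPV- parental, 45.8 and 48.3 CPM in HPV- resistant, 92.9 and 80.1 CPM in HPV+ parental and 64.3 and 66.9 CPM in HPV+ resistant libraries. The resistant libraries again lay below the parental ones in each line, by -0.41 (SE 0.16, adjusted p = 0.0871, edgeR) and -0.40 on the log2 scale (SE 0.16, adjusted p = 0.113, edgeR). ERCC1 overlaps POLR1G and FOSB on the opposite strand, and whether the libraries kept strand is not given in the sources used here. ERCC4, which encodes XPF, was at 12.8 and 17.7 CPM in HPV- parental, 19.0 and 17.1 CPM in HPV- resistant, 17.1 and 18.3 CPM in HPV+ parental and 20.8 and 22.9 CPM in HPV+ resistant libraries. The HPV- groups overlapped and the HPV+ groups did not, with log2 fold changes of 0.24 (SE 0.19) and 0.31 (SE 0.19). ERCC5, the XPG nuclease that cuts 3′ of the lesion, had 0.36 in the HPV- line and -0.33 in the HPV+ line, and shares sequence with the readthrough gene BIVM-ERCC5. Its difference between the lines was -0.69 (SE 0.24, adjusted p = 0.0728, edgeR).

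Of the 6 translesion polymerase genes, 3 passed as higher and 1 as lower in the HPV- clone, beside backgrounds of 12.8% and 14.1%. In the HPV+ clone 1 passed, as higher (background 7.65%). None of these calls held with an offset for transcript length. POLI, which encodes polymerase iota, was at 8.12 and 7.44 CPM in HPV- parental and 21.0 and 16.8 CPM in HPV- resistant libraries, a 2.43-fold difference without overlap (log2 fold change 1.28, SE 0.21, adjusted p = 0.00229, edgeR). The call held with each library left out (log2 fold change from 1.11 to 1.42), and with an offset for transcript length the log2 fold change was 0.95 (adjusted p = 0.0815, edgeR). POLI in HPV+ cells was at 3.18 and 3.17 CPM in parental and 6.03 and 5.66 CPM in resistant libraries, 1.84-fold higher without overlap (log2 fold change 0.88, SE 0.22, adjusted p = 0.0226, edgeR). This call was lost without any 1 of the 4 HPV+ libraries (adjusted p from 0.07 to 0.162), with the length offset (log2 fold change 0.49, adjusted p = 0.395) and with protein-coding transcripts only (0.66, adjusted p = 0.104), an alternative added after the data were seen. POLI was the least abundant of these polymerases in 3 of the 4 groups by TPM, with a gene mean of 3.7 in HPV- parental cells and 8.05 in their clone, and of 2.33 in HPV+ parental cells and 3.45 in their clone. Its counts were spread over many transcripts, none of which held more than 24.3% of its TPM in any group and none of which passed.

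POLH encodes polymerase eta, which copies past cisplatin crosslinks between adjacent guanines and is a known p53 target. It was at 23.7 and 29.7 CPM in HPV- parental and 36.8 and 40.1 CPM in HPV- resistant libraries, without overlap and 1.44-fold higher (log2 fold change 0.53, SE 0.15, adjusted p = 0.0256, edgeR). In the HPV+ line it was at 88.2 and 92.4 CPM in parental and 82.9 and 77.6 CPM in resistant libraries, without overlap and not passing (log2 fold change -0.17, SE 0.14, adjusted p = 0.444, edgeR). The change differed between the lines by -0.70 (SE 0.21, adjusted p = 0.0443, edgeR), a call lost when any of 7 of the 8 libraries was left out, the exception being HPV- parental replicate 2, and with the replicate block (adjusted p = 0.0612). The call in the HPV- line was lost without any of 5 libraries, HPV- parental replicate 1, either HPV- resistant library or either HPV+ parental library.

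The rise of POLH in the HPV- clone was seen in counts and not in TPM summed over its transcripts. It was at 6.93 and 6.05 TPM in HPV- parental and 6.63 and 7.19 TPM in HPV- resistant libraries, which overlap, and an edgeR fit with an offset for transcript length gave a log2 fold change of -0.07 (adjusted p = 0.825). The longest transcript, POLH-202, of 8368 bases, was at 1.98 and 2.33 TPM in HPV- parental and 3.85 and 4.19 TPM in HPV- resistant libraries, and its share of POLH TPM was 33.2% and 58.2%. On its own counts it had a log2 fold change of 0.80 (SE 0.12, adjusted p = 0.0598, edgeR). POLH-201, of 3322 bases, was at 1.43 and 3.73 TPM in parental and 2.78 and 3.0 TPM in resistant libraries, and POLH-203, of 331 bases, at 3.52 TPM in HPV- parental replicate 1 and 0 in the other 3 HPV- libraries. POLH-203 made up 3.52 of the 6.93 TPM of HPV- parental replicate 1, and without it the HPV- groups would not overlap by TPM. The length offset takes in the same short transcript, and what part it had in the offset result was not tested. Among the 10 genes that passed in the HPV- line, POLH was the one whose groups overlapped by TPM.

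**Figure D4:**
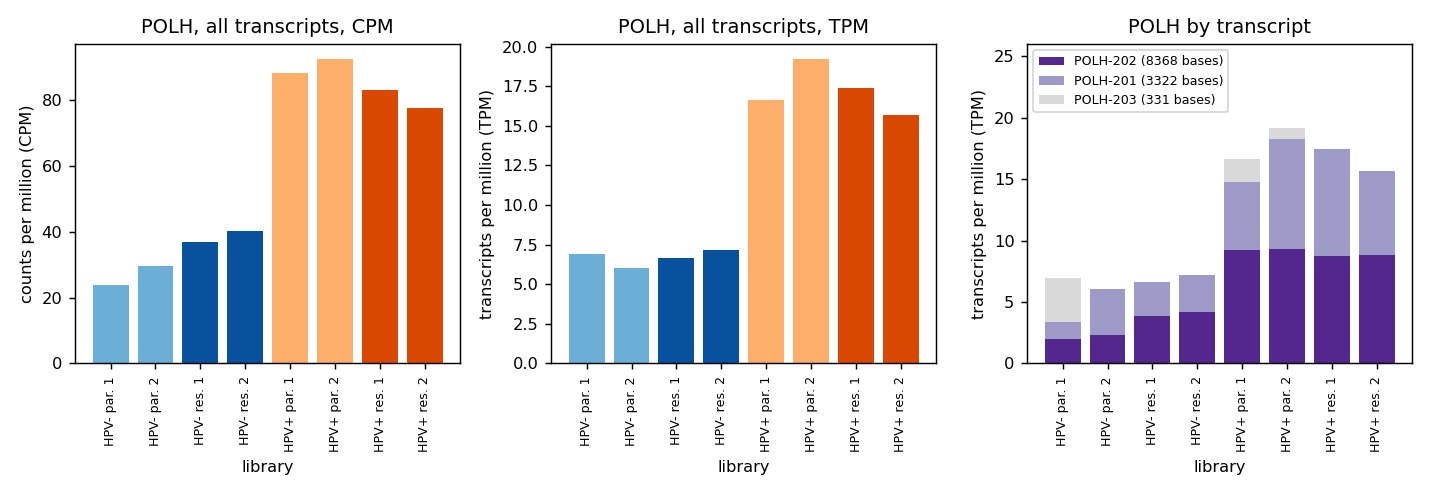
The panels give POLH in each of the 8 libraries (par., parental; res., resistant) in CPM, in TPM and in TPM split by transcript, all from 0. In the HPV- line the resistant bars exceed the parental ones in counts, the totals overlap in TPM, and POLH-202 (dark purple) goes from 1.98 and 2.33 to 3.85 and 4.19.

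POLK, which encodes polymerase kappa, was at 23.4 and 27.8 CPM in HPV- parental and 43.5 and 36.9 CPM in HPV- resistant libraries, 1.57-fold higher without overlap (log2 fold change 0.65, SE 0.17, adjusted p = 0.0169, edgeR). Leaving out replicate 1 of either HPV- group took the adjusted p to 0.0729 and 0.115 (edgeR), the length offset to 0.0524 and a fit of only the 4 HPV- libraries to 0.0513. With protein-coding transcripts only the log2 fold change was 1.55 (adjusted p = 0.00415, edgeR). The 20 tested genes nearest to POLK on chromosome 5 had a median of 0.75 in this comparison, and what part the region had was not tested. POLK in HPV+ cells was at 26.6 and 29.7 CPM in parental and 31.6 and 36.8 CPM in resistant libraries (log2 fold change 0.28, SE 0.17, adjusted p = 0.269, edgeR).

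REV3L, MAD2L2 and REV1 form the machinery that extends from a bypassed lesion. REV3L, the catalytic subunit of polymerase zeta, was at 50.5 and 68.0 CPM in HPV- parental, 91.1 and 65.4 CPM in HPV- resistant, 81.8 and 101 CPM in HPV+ parental and 137 and 138 CPM in HPV+ resistant libraries. The HPV- groups overlapped and the HPV+ groups did not, and neither change passed (log2 fold change 0.40, SE 0.20, adjusted p = 0.166, and 0.59, SE 0.20, adjusted p = 0.0664, edgeR). MAD2L2, the REV7 subunit, was at 46.5 and 33.7 CPM in HPV- parental and 23.2 and 29.9 CPM in HPV- resistant libraries, 1.51-fold lower without overlap (log2 fold change -0.59, SE 0.19, adjusted p = 0.0413, edgeR). This call was lost without any of 5 libraries, HPV- parental replicate 1, HPV- resistant replicate 1, HPV+ parental replicate 2 or either HPV+ resistant library. It was also lost with the length offset (adjusted p = 0.0754), only the 4 HPV- libraries (0.077), upper-quartile factors (0.0675), the replicate block (0.0645) or protein-coding transcripts only (0.0562, all edgeR), and 9 of 12 annotated MAD2L2 transcripts were matched. MAD2L2 in HPV+ cells was at 122 and 104 CPM in parental and 88.6 and 92.8 CPM in resistant libraries (log2 fold change -0.32, SE 0.18, adjusted p = 0.261, edgeR). REV1, the scaffold polymerase, had log2 fold changes of -0.01 and 0.22, and neither passed.

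HLTF and SHPRH, the ligases that extend ubiquitin chains on PCNA, both passed as higher in the HPV- clone on counts (background 12.8%). HLTF was at 51.1 and 64.6 CPM in parental and 86.7 and 81.0 CPM in resistant libraries, 1.45-fold higher (log2 fold change 0.54, SE 0.16, adjusted p = 0.0308, edgeR), and SHPRH was at 20.1 and 22.1 CPM in parental and 40.6 and 27.3 CPM in resistant libraries, 1.61-fold higher (log2 fold change 0.69, SE 0.19, adjusted p = 0.0219, edgeR). Neither gene had overlapping groups. The HLTF call held only without HPV- parental replicate 2 among the 8 fits that left out a library, and the SHPRH call was lost without either HPV- parental library, HPV- resistant replicate 1 or HPV+ parental replicate 1. With the length offset HLTF had 0.39 (adjusted p = 0.226, edgeR) and SHPRH 0.51 (0.145), and with only the 4 HPV- libraries HLTF had 0.51 (0.0883) and SHPRH 0.66 (0.0691), so neither passed. In the HPV+ line HLTF was at 162 and 194 CPM in parental and 185 and 188 CPM in resistant libraries, which overlap, and SHPRH at 52.4 and 56.9 CPM in parental and 70.4 and 77.0 CPM in resistant libraries, which do not. Their log2 fold changes there were 0.07 and 0.43 (adjusted p = 0.805 and 0.127, edgeR). RAD18, which adds the first ubiquitin to PCNA, had -0.33 in the HPV- line and 0.45 in the HPV+ line, and the difference of 0.78 (SE 0.24) did not pass (adjusted p = 0.0517, edgeR). PRIMPOL, the primase that restarts synthesis beyond a lesion, had -0.26 and -0.46, and neither passed.

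The change with resistance differed between the lines for 3 of 31 genes, which is 9.68% against a background of 16.7%. The HPV+ change was higher for GTF2H3 (1 gene, 3.23%, background 8.16%) and lower for POLH and CDK7 (2 genes, 6.45%, background 8.57%), and without CDK7 2 of 30 genes passed. CDK7 alone had a difference beyond 1 (3.23%, background 11.7%). The other 28 differences ran from -0.69 to 0.78 and did not pass. For POLI the difference was -0.40 (SE 0.31, adjusted p = 0.417, edgeR).

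Long genes tended to be higher and short genes lower in both clones. Over all genes tested, from the shortest to the longest of 10 groups by transcript length, the median log2 fold change went from -0.27 to 0.25 in the HPV- line and from -0.28 to 0.25 in the HPV+ line. Of the genes higher in the HPV- clone, UVSSA, POLH and SHPRH fell in the longest group (median 0.25) and POLK and HLTF in the next (median 0.20), while MAD2L2, which was lower, fell in the group next to the shortest (median -0.14). XPC, also higher there, fell in group 7 from the shortest (median 0.07). REV3L in the longest group and ERCC6 and RAD18 in the next did not pass in the HPV- line (0.40, 0.16 and -0.33). Neither did MNAT1 in the shortest group (-0.23) or CCNH in the group of MAD2L2 (-0.08). POLI and GTF2H3 fell near the middle, in groups with medians of 0.05 and 0.03 in the HPV- line. By GC content, the medians of 10 groups went from 0.24 in the lowest to -0.37 in the highest in the HPV+ line, and lay between -0.01 and 0.08 in the HPV- line. POLI fell in the group next to the lowest, with a median of 0.21 in the HPV+ line. What part length or GC content had in the calls was not tested.

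The parental lines differed in more of these genes than either clone differed from its parent. Of 31 genes, 20 passed between HPV+ and HPV- parental cells, which is 64.5% against a background of 58%, with 12 higher (38.7%, background 28%) and 8 lower in HPV+ cells (25.8%, background 30%). Of the 20, 11 also had a log2 fold change beyond 1 (35.5%, background 37%). Both HPV+ parental libraries lay above both HPV- ones for 13 genes and below them for 11 (41.9% and 35.5%, against 39.6% and 39.8% of all genes). UVSSA, at 48.0 and 39.9 CPM in HPV+ and 9.61 and 11.3 CPM in HPV- parental libraries, had a log2 fold change of 2.07 (SE 0.19, adjusted p = 8.54e-06, edgeR). POLH had 1.76 (SE 0.15, adjusted p = 4.47e-06, edgeR), HLTF 1.62 (SE 0.16, adjusted p = 1.26e-05, edgeR) and XPC 1.30 (SE 0.14, adjusted p = 1.78e-05, edgeR), each with parental values given above that did not overlap. MAD2L2 and SHPRH, at 1.5 and 1.37, were the other genes higher by more than 1, and XAB2, XPA, REV3L, RAD18, REV1 and ERCC1 were higher by 0.47 to 0.66.

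On the lower side in HPV+ parental cells, MNAT1 was at 19.9 and 22.0 CPM, against 75.0 and 89.3 CPM in HPV- parental libraries (log2 fold change -1.97, SE 0.15, adjusted p = 1.81e-06, edgeR). CETN2, the centrin that stabilizes XPC, was at 19.6 and 22.6 CPM against 49.3 and 56.8 CPM (-1.33, SE 0.16, adjusted p = 4.66e-05, edgeR). ERCC2 was at 42.4 and 38.1 CPM against 80.0 and 72.5 CPM (-0.92, SE 0.14, adjusted p = 0.000253, edgeR). POLI had -1.29 (SE 0.22, adjusted p = 0.000592, edgeR) and DDB2, a p53 target, -1.04 (SE 0.19, adjusted p = 0.000767, edgeR). The groups did not overlap for any of these 5 genes. GTF2H4, GTF2H5 and CCNH were the other 3 that were lower. Of the 20 parental calls, 11 held in every refit that included the gene, namely CETN2, DDB2, ERCC2, GTF2H5, HLTF, MAD2L2, MNAT1, POLH, SHPRH, UVSSA and XPC. The fold threshold was not one of these refits, and ERCC2 (-0.92) and GTF2H5 (-0.89) were not beyond 1 on the log2 scale. The GTF2H4 call (log2 fold change -1.03, adjusted p = 0.0391, edgeR) was lost without HPV- parental replicate 1 (-0.32, adjusted p = 0.322), HPV- resistant replicate 1 (0.0508) or either HPV+ parental library (0.111 and 0.163). ERCC1 was lost without HPV- parental replicate 2 (0.23) or HPV+ parental replicate 1 (0.34) and with the length offset (0.23). RAD18 was lost without HPV- parental replicate 1 or either HPV+ parental library, XAB2 without HPV- parental replicate 2 or HPV+ parental replicate 1, and REV3L without HPV- parental replicate 1 or HPV+ parental replicate 2. CCNH was lost without HPV+ parental replicate 1 and REV1 and XPA without HPV+ parental replicate 2, and the length offset ended the calls of REV3L, REV1 and POLI. By TPM, a scale that allows genes to be compared, MNAT1 had the highest level of the 31 genes in HPV- parental and HPV- resistant cells (108 and 109), and MAD2L2 the highest in HPV+ parental and HPV+ resistant cells (158 and 139).

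**Figure D5:**
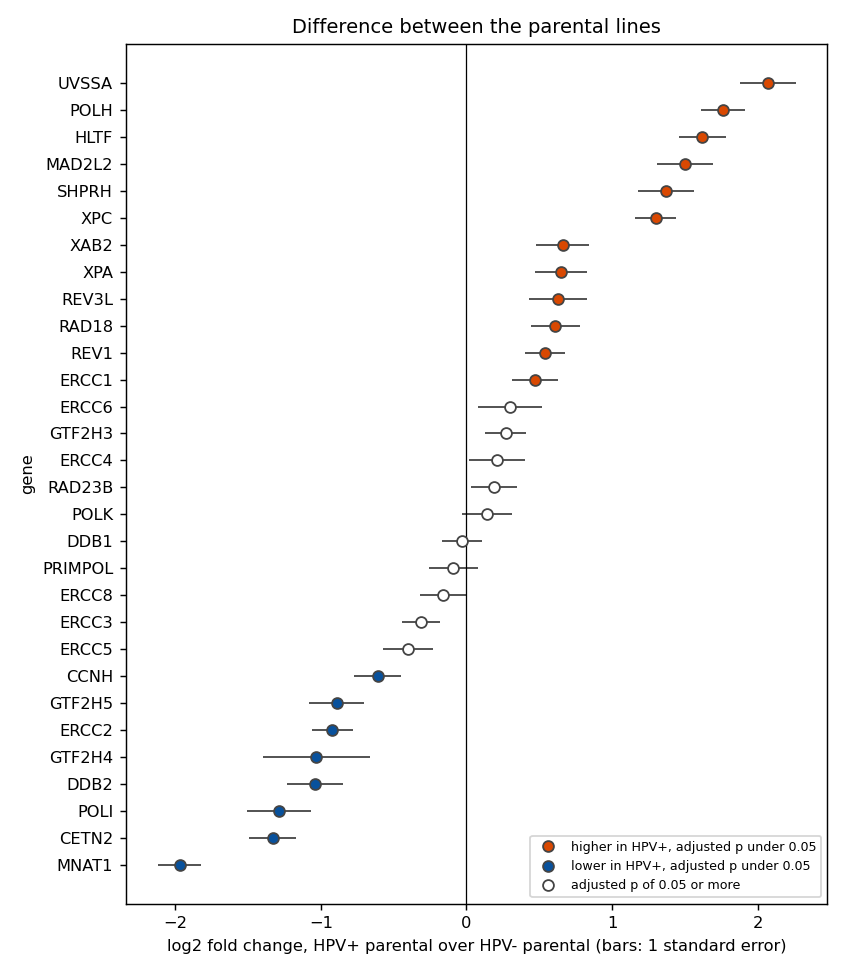
The horizontal axis is the log2 fold change of HPV+ over HPV- parental cells with 1 standard error for 30 genes (vertical axis, ordered by value; CDK7 left out); orange and blue points are higher and lower with an adjusted p under 0.05 in edgeR, and white points did not pass. The values run from -1.97 for MNAT1 to 2.07 for UVSSA.

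Other genes of the same routes are given by counts. Of 30 other excision repair genes, the HPV- clone had 6 lower (20%, against 14.1% of all genes) and 0 higher (background 12.8%). The HPV+ clone had 5 lower (16.7%, background 10.5%) and 2 higher (6.67%, background 7.65%). The clamp loader subunit RFC5 fell from 71.4 and 72.3 CPM in HPV- parental to 37.5 and 42.9 CPM in HPV- resistant libraries (log2 fold change -0.84, adjusted p = 0.00173, edgeR), with RFC4 (-0.71) and the polymerase delta subunit POLD2 (-0.66) next in order of p. In the HPV+ clone the elongation factor TCEA1 rose from 225 and 285 to 528 and 525 CPM (1.05, adjusted p = 0.00559, edgeR), and USP45, which removes ubiquitin from ERCC1, had 0.66, while POLD2, RPA3 and RBX1 fell by 0.77, 0.89 and 0.88 on the log2 scale. The medians of the list were -0.32 and -0.14 in the HPV- and HPV+ comparisons.

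Of 16 other damage tolerance genes, the HPV- clone had 7 lower (43.8%, background 14.1%) and 1 higher, SLX4 at 0.61 (6.25%, background 12.8%). The HPV+ clone had 1 lower, VCP at -0.52 (6.25%, background 10.5%), and 0 higher (background 7.65%). In the HPV- clone the lowest p belonged to TIMELESS, of the fork protection complex, which fell by 1.31 on the log2 scale, to UBE2N, the E2 enzyme for the chains that HLTF and SHPRH build, which fell by 1.22, and to the segregase VCP, which fell by 0.87. The medians were -0.28 and 0.05. Of 17 tested p53 target genes outside the 32, the HPV- clone had 7 lower (41.2%, background 14.1%) and 3 higher (17.6%, background 12.8%). The 3 lower ones with the smallest p were AEN (-2.07), PLK3 (-1.62) and CDKN1A (-1.57). The 3 higher ones were FAS (1.20), GDF15 (2.20) and BTG2 (0.88). The HPV+ clone had 2 in each direction (11.8%, background 10.5% for lower and 7.65% for higher). PLK3 (1.44, adjusted p = 0.00184, edgeR) and TNFRSF10B (0.47) were higher there, and BAX (-0.79) and TP53INP1 (-0.75) were lower. These lists, like the 32 genes, were chosen with earlier results of these data known.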

How the data were processed

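PolyA RNA of the 4 groups was sequenced as paired-end reads. Transcript levels were estimated by the authors in Salmon on GRCh38, with a version and annotation not given in the sources used here. Deposited values were estimated counts (read pairs, not normalized), deposited TPM (scaled by effective length) and effective lengths. Of 187432 transcripts, 172550 (92.1%) were matched to GENCODE release 44 by ID. Unmatched transcripts, with 4.33 to 5.13% of counts, were not used. Sums per gene were rounded and tested with edgeR 4.0.16 (R 4.3.3) in 1 fit over 8 libraries with a coefficient per group, TMM factors, the default filter and the robust quasi-likelihood test, with Benjamini-Hochberg adjustment over 15221 genes or, for transcripts, 63647 transcripts. CPM used TMM-scaled library sizes. The fit had 4 residual degrees of freedom, and genes with few counts are measured with little precision at this depth. The scripts were tested on simulated data.

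A gene passed at an adjusted p under 0.05. All 32 genes are named. Values per library are given for ERCC1, ERCC4, XPA, XPC, POLH and REV3L and for genes that passed, up to 6 per direction in a clone and 4 between lines, by smallest p. The 32 genes and the lists were chosen with earlier results of these data known. Alternatives were DESeq2 1.42.0, RLE and upper-quartile factors, other filters, a transcript length offset, only the 4 libraries compared, a replicate block, each library left out and a fold threshold. Protein-coding transcripts only, genes with every transcript matched and the CDK7 check were chosen after seeing the data. The shared replicate numbers were not taken as pairs. Tables and plots used Python 3.11.15, pandas 2.3.3 and matplotlib 3.10.9.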

Additional observations from a re-analysis of the deposited data

Results flagged for a closer look

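The change with resistance differed between the HPV+ and HPV- lines by the interaction test in edgeR for 3 of the 31 genes. GTF2H3 had a difference of 0.86 on the log2 scale (SE 0.20, adjusted p = 0.0155), with a lower level in the HPV- resistant clone and overlapping libraries in the HPV+ line. That call was lost with the transcript length offset. POLH had a difference of -0.70 (SE 0.21, adjusted p = 0.0443) on counts, and with the transcript length offset the difference was -0.11 (adjusted p = 0.86). That offset takes in the short transcript POLH-203, seen in HPV- parental replicate 1 alone among the HPV- libraries, and its part was not tested. CDK7 had a difference of -6.57 (SE 1.21, adjusted p = 0.018) on its matched transcripts, and the unmatched transcript with the reverse pattern leaves that value without a reading for the gene.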

How the results depend on the processing

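Of 602 refits of single calls, 505 kept direction and threshold, 96 kept direction only and 1 turned, POLH in the HPV- comparison, at -0.07 with the transcript length offset. Of 34 calls, 13 held in every refit that included the gene, 11 of them between the parental lines and the others being GTF2H3 and CDK7 in the HPV- comparison. The fold threshold was applied to numbers of calls only and is not among these refits. Numbers of genes that passed moved by over 1.5 times as follows, and the causes were not tested. The share of all genes that passed is not given for these settings. In the HPV- comparison the 10 calls (8 higher, 2 lower) became 3 (2 and 1) with the length offset and 4 (3 and 1) in a fit of only the 4 libraries compared, and the lower calls became 1 with upper-quartile factors, the replicate block, protein-coding transcripts only or genes with every transcript matched. In the HPV+ comparison the 1 higher call became 3 (2 higher, 1 lower) without a filter, 13 (9 higher, 4 lower) with only the 4 libraries compared, 2 (both higher) with DESeq2 and 0 with protein-coding transcripts only. In the difference between the lines the 3 calls (1 higher, 2 lower) became 5 with the 5 CPM filter (3 higher); the higher calls became 2 with RLE factors, DESeq2 or no filter and 0 with the length offset, and the lower calls became 1 with the replicate block or genes with every transcript matched. A log2 fold change beyond 1 left 2 calls in the HPV- comparison (2 higher, 0 lower), 0 in the HPV+ comparison, 1 in the difference (0 higher, 1 lower) and 11 between the parental lines (6 higher, 5 lower), down from 20 (12 and 8).

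With 1 library left out, calls ran from 3 to 11 in the HPV- comparison (2 to 6 higher, 1 to 5 lower), from 0 to 6 in the HPV+ comparison (0 to 4 higher, 0 to 2 lower), from 0 to 5 in the difference (0 to 3 in each direction) and from 15 to 20 between the parental lines (8 to 12 higher, 6 to 9 lower). The fewest HPV- calls, 3, came without HPV- resistant replicate 1, and the most HPV+ calls, 6, without HPV- parental replicate 1. These fits leave 1 group with 1 library, which is assumed to vary like the others. Of 203 tested transcripts of these genes, 2 passed in the HPV- comparison (0.985%, against 0.646% of all 63647). They were GTF2H3-203, lower, and CDK7-201, higher (adjusted p = 0.0375, edgeR), for which no direction is given above. In the HPV+ comparison 0 of the 203 passed (background 0.588%). The 2 transcripts that passed in the HPV- comparison became 0 with the replicate block and 0 to 1 with a library left out. Same-numbered libraries deviated together by correlations from -0.0739 to 0.142. These cannot show whether the replicate numbers mark pairs, which the sources used here do not state. With upper-quartile factors the median of all genes in the HPV- comparison was 0.12 on the log2 scale, beside 0.04 in the main fit.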
